A study of Rattus norvegicus with 120 samples.

Results

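The mitochondrial ribosomal proteins were taken as the genes whose deposited symbol begins with Mrpl or Mrps followed by a digit, with pseudogene names left out. The rule gave 72 gene identifiers carrying 71 symbols, since Mrpl42 is listed under 2 identifiers, of 30560 genes in the tables, of which 23398 had a symbol. There were 43 Mrpl identifiers, named for the large subunit, and 29 Mrps identifiers, named for the small subunit. In each comparison 70 of the 72 passed the filter on low counts. The remaining pair, the second Mrpl42 identifier and Mrps21l, a near-copy of Mrps21, lay near 0 counts in the libraries. The symbols mrpl9, mrpl11 and mrpl24 are spelled in lower case in the tables and so fell outside the rule.

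The mitochondrial ribosome, or mitoribosome, translates the few proteins that mitochondrial DNA encodes, all of which are parts of the respiratory chain and the ATP synthase. Its RNAs are made inside the organelle, but all of its proteins are encoded in the nucleus, made in the cytosol and imported. Many descend from the proteins of the bacterial ribosome, and others are found only in mitochondria, while heart muscle and the kidney's proximal tubule are both rich in mitochondria.

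The libraries came from 30-week-old ZSF1 rats, a hybrid strain in which obese animals develop diabetes, kidney disease and heart disease and lean animals serve as controls. In study A, lean rats on vehicle, obese rats on vehicle and obese rats on BT2, which inhibits BDK, the kinase that shuts off branched-chain ketoacid dehydrogenase, were compared. In study B, obese rats received vehicle, empagliflozin, an inhibitor of the glucose transporter SGLT2, or empagliflozin with BT2 (the combination). Kidney and heart were each sequenced from 10 rats per group, which makes 12 groups and 120 libraries of poly-A RNA. All compounds were given in chow, study B had no lean group, and the labels name the tissue as kidney although the design text speaks of whole kidney and of cortex. The labels do not tie a heart to a kidney of the same rat.

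Expression is given as CPM, the count per 1000000 counts of a library, after TMM scaling within each organ. Such a value compares libraries of an organ but not different genes, since no transcript lengths were at hand. CPM given for lean heart against lean kidney come from the lean libraries of both organs scaled together. They differ from the CPM of the same libraries elsewhere. A member was called changed at a Benjamini-Hochberg adjusted p under 0.05 over all genes tested, from edgeR's quasi-likelihood test with the plate as a covariate. The labels put replicates 1 to 5 on plate 1 and 6 to 10 on plate 2. Depth ranged from 4598858 to 54856467 counts with a median of 10333370 in 58 kidney libraries, and from 6735291 to 23575874 with a median of 12151654 in 60 heart libraries. The remaining pair of kidney libraries, BT2 replicate 2 and study B vehicle replicate 8, held 22773 and 776172 counts and were left out of the levels given here, but not of the fits. Kidney libraries expressed Slc34a1 (493 to 3341 CPM), a proximal tubule transporter, and heart libraries expressed Myh6 (4434 to 13862 CPM), the cardiac myosin chain. Set apart were 7 kidney and 11 heart libraries, for low depth or for markers of another tissue, and the counts of members below are also given without them. The most unusual was lean kidney replicate 8, the deepest kidney library, with 8526 CPM of cardiomyocyte markers against a group median of 12.3. It was the highest of the 10 lean kidney libraries for 61 of the 70 members.

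Promoters were looked up because members moved together in several comparisons. The RefSeq promoter table (build GRCr8, 250 bases before to 50 after each start) held 57 entries for 55 of the 71 symbols. The letters CCGGAAG, the core bound by ETS factors such as GABP, occurred on either strand in 33.3% of the member entries and in 8.75% of all 33469 entries. The letters GCATGCGC of the NRF1 motif occurred in 8.77% against 2.47%, and AAGATGGC of the YY1 motif in 22.8% against 3.17%. The CCAAT box occurred in 45.6% against 37.5%. Of the 13 YY1 matches in the members, 10 lay at or after the start, and of the 11 NRF1 matches none did. A match is a run of letters and was not tested as a binding site.

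The sequences below are the upstream bases of 5 members that carry later results, 5′ to 3′ on the gene's strand, with ETS, NRF1 and CCAAT matches in capitals. They are Mrps9 and the 4 members Mrpl32, Mrpl58, Mrps18a and Mrps11, at chr9:52605428-52605677 (plus strand), chr17:55260442-55260650 (plus), chr10:101145092-101145341 (plus), chr9:22367381-22367630 (minus) and chr1:142117031-142117263 (plus).
Mrps9: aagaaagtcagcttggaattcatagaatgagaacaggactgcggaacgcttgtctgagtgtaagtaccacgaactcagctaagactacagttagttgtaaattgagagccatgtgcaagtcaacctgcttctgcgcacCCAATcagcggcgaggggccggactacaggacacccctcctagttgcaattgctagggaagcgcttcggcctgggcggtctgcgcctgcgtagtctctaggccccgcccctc
Mrpl32: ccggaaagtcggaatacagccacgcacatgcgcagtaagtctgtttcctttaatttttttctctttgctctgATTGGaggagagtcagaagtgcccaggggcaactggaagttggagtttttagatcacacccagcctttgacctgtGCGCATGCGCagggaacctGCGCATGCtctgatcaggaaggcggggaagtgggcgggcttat
Mrpl58: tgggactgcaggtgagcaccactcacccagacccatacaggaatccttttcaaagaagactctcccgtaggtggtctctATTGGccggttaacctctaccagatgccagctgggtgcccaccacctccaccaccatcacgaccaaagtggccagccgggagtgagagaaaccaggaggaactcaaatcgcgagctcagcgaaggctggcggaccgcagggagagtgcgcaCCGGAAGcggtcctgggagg
Mrps18a: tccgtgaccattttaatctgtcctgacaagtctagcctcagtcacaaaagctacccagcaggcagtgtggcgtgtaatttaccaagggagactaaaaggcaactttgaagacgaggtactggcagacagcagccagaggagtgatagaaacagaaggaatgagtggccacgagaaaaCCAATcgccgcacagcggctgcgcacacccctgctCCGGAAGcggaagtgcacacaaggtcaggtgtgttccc
Mrps11: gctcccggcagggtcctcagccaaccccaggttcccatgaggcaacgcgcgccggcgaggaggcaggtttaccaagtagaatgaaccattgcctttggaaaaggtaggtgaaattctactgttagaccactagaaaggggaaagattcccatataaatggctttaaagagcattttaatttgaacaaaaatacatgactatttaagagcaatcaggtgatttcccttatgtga
Mrpl32, a large-subunit protein that is cut to its mature form after import, has 3 NRF1 matches 43 to 62 bases before its start, of which an adjoining pair overlap. Mrpl58 and Mrps18a each have an ETS match, 20 and 38 bases before the start. Mrps11 has none of these letters in the bases shown, which are also the whole interval between it and Mrpl46. These genes are transcribed in opposite directions from starts 234 bases apart. In all, 14 of the 57 member entries had a start on the opposite strand within 300 bases upstream, or 24.6%, against 7.63% of all entries in the table.

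In the kidney, the pooled median of the members' summed level was lowest in obese vehicle rats of study A, but not on plate 2. Lean rats had 2794, 3039 and 4579 CPM (lowest, median, highest), obese vehicle rats 2375, 2571 and 3508, and obese rats on BT2 2345, 2997 and 3318. In study B vehicle gave 2863, 3233 and 3643, empagliflozin 2402, 2933 and 3314, and the combination 2847, 3181 and 3550. These groups all overlap, but the 5 obese vehicle libraries of study A on plate 1 (2375 to 2576 CPM) lie below every lean library. On plate 2 their group had the highest median of the kidney groups, 3395 CPM, beside 3394 in lean rats. In the heart, lean rats had 2358, 2737 and 3339 CPM, obese vehicle rats of study A 2653, 2856 and 3872, and BT2 2600, 2994 and 3589. Study B hearts had 2280, 2665 and 3114 on vehicle, 2559, 2832 and 3292 on empagliflozin and 2702, 2993 and 3262 on the combination, and again all groups overlap.

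Plate moved with these sums in every group. The median sum was higher on plate 2 than on plate 1 in 12 of 12 groups, by 1.05 to 1.33 times. Of the 70 members, 47 had a higher median on plate 2 in at least 10 of the 12 groups, and 4 (Mrpl47, Mrpl51, Mrps10 and Mrps2) had a lower one. The 1.33-fold gap was in obese vehicle kidneys of study A, with a median of 2557 CPM on plate 1 and 3395 on plate 2, against 2890 and 3394 in lean kidneys. Plates were balanced within groups and entered each fit as a term, and counts within each plate are given beside the pooled ones. The ratio of summed Mrpl to summed Mrps mRNA, grouped by symbol, ranged only from 1.52 to 1.86 over the libraries. The symbol does not always give the subunit, since Mrps30 and Mrps18a sit in the large subunit and Mrps36 belongs to another complex.

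**Figure D1:**
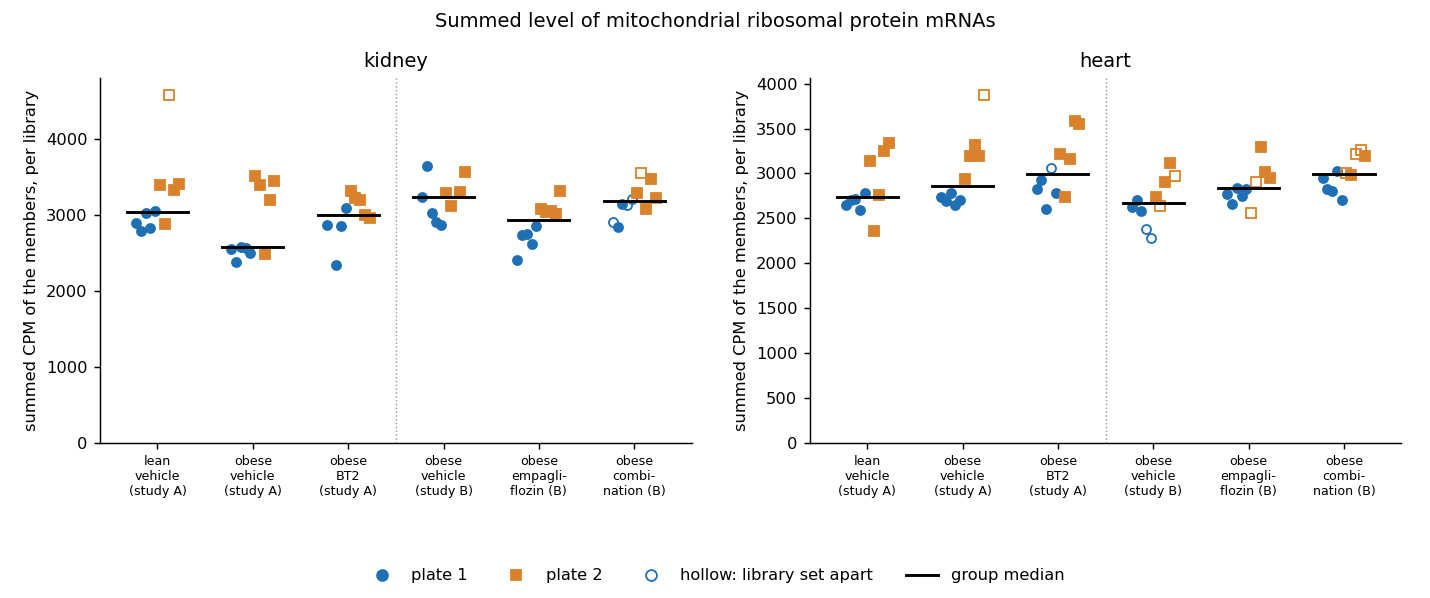
Summed CPM of the mitochondrial ribosomal protein genes in each library (vertical axis) for the 6 groups of each organ, scaled within the organ; circles are plate 1, squares plate 2, hollow symbols libraries set apart, and lines group medians. The plate 2 libraries have the higher median in every group, and lean kidney replicate 8 stands at 4579. Obese vehicle kidneys of study A have the lowest pooled kidney median (2571) but the highest on plate 2 (3395). The 2 kidney libraries under 1000000 counts are not drawn.

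In lean rats, nearly all members were higher in heart than in kidney when the lean libraries of both organs were scaled together. Scaled within each organ, the median summed level of the members was 2826 CPM over heart and 3050 CPM over kidney libraries. The direction thus rests on the joint scaling. Of the 70, 64 were higher and 2 lower, against 39.9% of all genes called higher and 41.1% lower, with a median log2 difference of 0.92. Mrpl4, a large-subunit protein that lines the exit tunnel, had 40.7, 52.4 and 78.0 CPM (lowest, median, highest) in heart and 10.9, 12.2 and 21.3 in kidney. The groups do not overlap, and the difference was 2.14 on the log2 scale (SE 0.12, edgeR adjusted p = 1.5e-12). Mrps15, a small-subunit protein of bacterial type, had 92.0, 106 and 118 CPM against 23.5, 26.3 and 59.8, a log2 difference of 1.87 (SE 0.14, edgeR adjusted p = 6.6e-11). Mrpl42, specific to mitochondria, had 77.8, 86.7 and 110 CPM against 18.9, 25.0 and 56.4, a difference of 1.74. For both, the lowest heart library lay above the highest kidney library, which was lean kidney replicate 8, the library with cardiomyocyte markers. In all, 33 members had every heart library above every kidney library, against 18.8% of all genes.

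On this joint scale the kidney did not hold less of every member. Mrps33 was lower in heart, with 22.0, 27.8 and 30.1 CPM against 27.5, 32.7 and 41.5, a log2 difference of -0.30 (SE 0.08, edgeR adjusted p = 0.0016). Mrps25 was also lower, with 38.5, 47.7 and 58.8 CPM against 47.8, 56.4 and 66.2, a difference of -0.24 (SE 0.06, edgeR adjusted p = 0.00069). The groups overlap for both, which are mitochondria-specific proteins of the small subunit. Mrpl52 (-0.15), Mrpl22 (0.08), Mrps34 (0.11) and Mrps18c (0.14) were not called. By class, 24 of 25 bacterial-type and 18 of 19 mitochondria-specific large-subunit members were higher in heart, with medians of 0.94 and 0.91. In the small subunit these were 14 of 15 and 7 of 10, with medians of 0.95 and 0.58.

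Members with a particular role or a known human disease followed the majority. Mrpl12, a protein of the ribosomal stalk that also binds the mitochondrial RNA polymerase, was 1.45 higher in heart on the log2 scale. Mrpl3, Mrpl44 and Mrps22, in which human mutations cause disease with heart muscle involvement, were 1.48, 0.96 and 0.54 higher. Mrps12, at the decoding centre, was 1.13 higher, and Mrpl58, a peptidyl-tRNA hydrolase built into the large subunit, 0.91. Mrps30 and Mrps18a, which despite their names sit in the large subunit, were 1.06 and 0.69 higher. Mrps36, now known as a subunit of the 2-oxoglutarate dehydrogenase complex, was 1.70 higher, with 124, 144 and 167 CPM in heart and 32.2, 42.4 and 72.1 in kidney, and its groups did not overlap. Under the joint scaling the direction held on each plate, with 66 of 70 estimates above 0 on plate 1 and 68 on plate 2. Fewer members were called on plate 2. Members called were 67 of 70 on plate 1 alone, 56 on plate 2 alone and 67 without the library set apart.

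The machinery around the mitoribosome was less uniform between the organs. Of 5 mitoribosome subunits under other names, 4 were higher in heart, among them Dap3 (1.00), and Ptcd3 (-0.36) was lower. Assembly and rRNA-processing genes were higher for 15 and lower for 4 of 23, and mitochondrial aminoacyl-tRNA synthetases, which charge the organelle's tRNAs, for 9 and 4 of 16. Translation factors were higher for 12 and lower for 2 of 16, with the elongation factor gene Tufm 1.56 higher. All 35 complex I subunit genes were higher, with a median of 1.87, and so were all 15 mitochondrially encoded transcripts, with a median of 2.04. Cytosolic ribosomal protein genes were higher for 49 and lower for 2 of 82, with a median of 0.39. The mitoribosomal median of 0.92 lies between these, and the differences between lists were not tested. In tissue RNA, fewer cells of a type and less RNA per cell cannot be told apart.

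**Figure D2:**
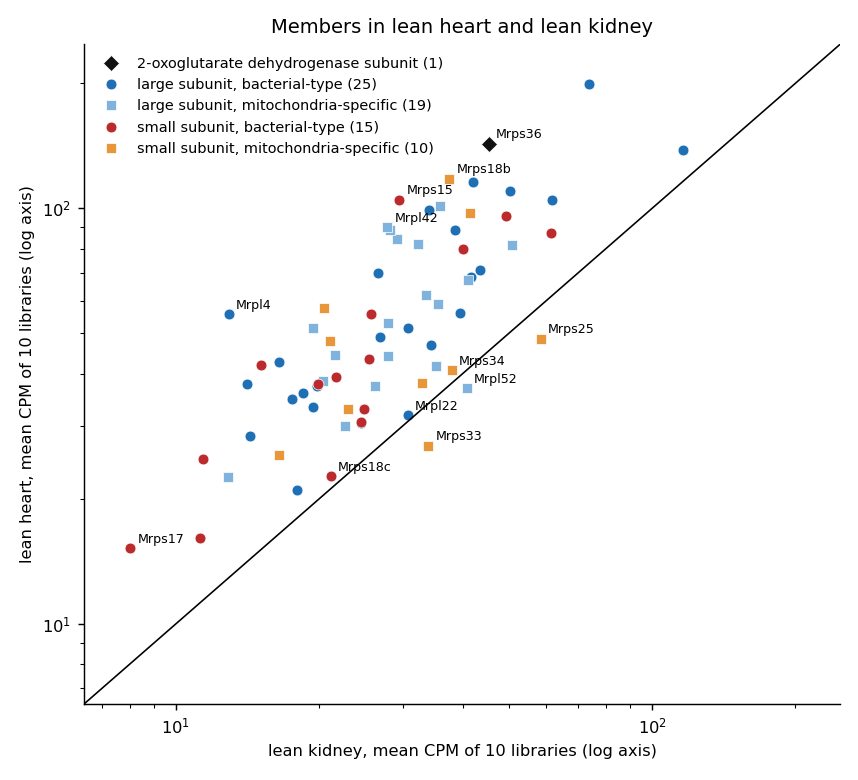
Mean CPM of each of the 70 members tested in 10 lean kidney libraries (horizontal, log axis) and 10 lean heart libraries (vertical, log axis), scaled together; colours give the subunit and whether the protein is of bacterial type or specific to mitochondria, and the line marks equality. Nearly all points lie above the line, Mrpl4 (2.14 on the log2 scale) farthest, while Mrps33 and Mrps25 lie below it.

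In the kidney, obesity went with lower levels of members. Of 70, 14 were lower and none higher in obese than in lean rats on vehicle, against 15.2% of all genes called lower and 16.9% higher. The 14 are 20.0% of the members, a share near the background. The direction was shared more widely, since 63 of 70 estimates were below 0 and their median was -0.16, where the median of all genes is about 0. Within plates, 22 members were called lower on plate 1 and 0 on plate 2, where the median was -0.10. Without lean replicate 8, 9 of the 14 were still called, the median was -0.11, and no other member was.

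Mrpl16, which lies near the peptidyl transferase centre, fell most. It had 61.0, 69.5 and 86.1 CPM in obese kidneys and 76.4, 86.4 and 116 in lean kidneys. All 10 obese libraries were below the lean median, though the groups overlap. The log2 fold change was -0.34 (SE 0.06, edgeR adjusted p = 0.00039), and -0.31 without lean replicate 8 (edgeR adjusted p = 0.00027). Mrps10 had 9.31, 13.2 and 16.2 CPM against 13.5, 16.7 and 19.1, again with all 10 obese libraries below the lean median, a log2 fold change of -0.30 (SE 0.10, edgeR adjusted p = 0.020). Mrpl15 had 115, 135 and 176 CPM against 141, 161 and 227, a log2 fold change of -0.31 (SE 0.08, edgeR adjusted p = 0.0033). For Mrpl15, 1 of 10 obese libraries was above the lean median.

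Mrpl40 and Mrpl30 leaned more on a single library. Mrpl40, a mitochondria-specific large-subunit protein, had 25.1, 33.4 and 42.6 CPM in obese against 31.8, 41.5 and 72.9 in lean kidneys, where 72.9 is replicate 8. Its log2 fold change of -0.33 (SE 0.12, edgeR adjusted p = 0.036) became -0.22 without that library and was no longer called (edgeR adjusted p = 0.061). Mrpl30 had 27.0, 30.6 and 52.3 CPM against 34.1, 40.6 and 72.4, a log2 fold change of -0.32 (SE 0.10, edgeR adjusted p = 0.022), which became -0.25 (edgeR adjusted p = 0.041). The others called lower were Mrps7 (-0.30), Mrps18c (-0.28), Mrps16 (-0.26), Mrpl47 (-0.25), Mrpl18 (-0.25), Mrpl22 (-0.24), Mrpl20 (-0.22), Mrps25 (-0.18) and Mrps9 (-0.16). Mrps36 (-0.25, edgeR adjusted p = 0.061) and Mrpl12 (-0.28, edgeR adjusted p = 0.17) did not pass. Mrpl3 (-0.09), Mrpl44 (-0.10), Mrps22 (-0.06), Mrps12 (0.05), Mrps18a (-0.03) and Mrps30 (-0.00) were also not called.

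Neighbouring mitochondrial lists and cell type markers moved in the same comparison. Complex I genes fell for 21 of 35, with a median of -0.34, and translation factors for 6 of 16, among them Taco1 (-0.43), Mrrf (-0.28) and Mtif3 (-0.27). Assembly genes fell for 2 of 23, Dhx30 and Mrm2, and none of the 5 subunits under other names was called. Of 9 regulators of mitochondrial genes, Myc (1.64) and Pprc1 (0.47) were higher and Ppargc1b (-0.66), Esrra (-0.31) and Yy1 (-0.29) lower. Proximal tubule markers fell for 6 of 8, with summed levels of 6719, 13638.5 and 15121 CPM in lean and 6403, 8154 and 9741 in obese kidneys. Myeloid markers rose for 5 of 5, with sums of 73.5, 77.9 and 124 CPM in lean and 130, 188 and 242 in obese kidneys, which do not overlap. The part of these cell markers in the members' change was not tested.

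BT2 alone changed no member in obese kidneys, against 2.26% of all genes called higher and 3.41% lower by edgeR. At an unadjusted p under 0.05 there were 4 members, and DESeq2 called 0. The smallest adjusted p values were those of Mrpl4, with 17.6, 21.7 and 27.5 CPM on BT2 (n = 9) against 15.7, 17.9 and 24.3 on vehicle, a log2 fold change of 0.21 (SE 0.08, edgeR adjusted p = 0.12), and of Mrps9. Mrps9 had 64.4, 70.9 and 82.6 CPM on BT2 against 54.0, 61.7 and 78.4, a log2 fold change of 0.15 (SE 0.06, edgeR adjusted p = 0.14). All 9 BT2 libraries were above the vehicle median for Mrps9, and 8 of 9 for Mrpl4, while the groups overlap. This comparison uses the same obese vehicle libraries as the comparison with lean rats, so the values of the pair are not independent. The members' median was 0.07, but the direction turned between plates. On plate 1 alone the median was 0.15 with 57 of 70 estimates above 0, and on plate 2 alone it was -0.01 with 42 of 70 below 0. No member was called on either plate alone or without the libraries set apart.

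Empagliflozin went with lower estimates for 67 of 70 members in the kidney, with a median of -0.17. Only 3 were called, or 4.29%, against 0.590% of all genes called lower and 0.469% higher, and no member was called on either plate alone. Without the libraries set apart 2 members were called. Mrpl14, a large-subunit protein at the face that meets the small subunit, had 22.6, 26.3 and 32.7 CPM on empagliflozin and 26.7, 30.9 and 43.8 on vehicle (n = 9), a log2 fold change of -0.33 (SE 0.07, edgeR adjusted p = 0.040). It lost its call without study B vehicle replicate 8, the library of 776172 counts (edgeR adjusted p = 0.059). Mrps11 had 29.2, 37.2 and 44.0 CPM against 33.0, 43.4 and 54.0, a log2 fold change of -0.31 (SE 0.07, edgeR adjusted p = 0.037). Mrps25 had 41.5, 57.5 and 69.1 CPM against 57.0, 68.8 and 84.6, a log2 fold change of -0.30 (SE 0.07, edgeR adjusted p = 0.049). In each of the 3 members 9 of 10 treated libraries were below the vehicle median, and the groups overlap. Mrpl12 just missed the threshold (-0.30, edgeR adjusted p = 0.051). DESeq2 called 12 members, and the fit without the low-count filter none. Among the other lists, complex I genes had a median of -0.23 with 2 of 35 called lower, and 3 of 8 proximal tubule markers were lower.

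The combination moved members in both directions against vehicle in the kidney. Of 70, 4 were higher and 6 lower, or 5.71% and 8.57%, against 17.3% and 14.8% of all genes, and the members' median was -0.05. Both shares lie under the background. Within plates 2 members were called on plate 1 and 2 on plate 2, and 7 without the libraries set apart. Mrps9, a protein of the small subunit's head, rose most, with 70.5, 85.4 and 96.9 CPM against 57.0, 66.0 and 78.0 on vehicle (n = 9). All 10 treated libraries were above the vehicle median, and the log2 fold change was 0.31 (SE 0.06, edgeR adjusted p = 0.00063). On plates 1 and 2 alone it was 0.25 (edgeR adjusted p = 0.12) and 0.37 (edgeR adjusted p = 0.0044). Mrpl28 had 56.5, 67.1 and 78.0 CPM against 48.2, 54.6 and 62.0, a log2 fold change of 0.23 (SE 0.07, edgeR adjusted p = 0.0086), with all 10 above the vehicle median. Mrpl16 (0.27) and Mrpl46 (0.23) also rose.

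Those that fell under the combination included Mrps21, a small bacterial-type protein of the small subunit. Mrps21 had 30.1, 33.9 and 41.6 CPM against 30.3, 46.4 and 53.5, a log2 fold change of -0.31 (SE 0.08, edgeR adjusted p = 0.0033). Mrpl32 had 18.5, 20.6 and 22.2 CPM against 20.0, 23.8 and 27.6, a log2 fold change of -0.24 (SE 0.07, edgeR adjusted p = 0.0080). For both, all 10 treated libraries were below the vehicle median and the groups overlap. Mrps28 (-0.26), Mrpl23 (-0.24), Mrps25 (-0.21) and Mrpl45 (-0.19) fell too, the last a protein that holds the ribosome to the inner membrane. Mrps21 has a near-copy among the members, and Mrps21l stayed near 0. Mrps25 was lower in obese than lean kidneys, lower on empagliflozin and lower on the combination, the last pair sharing their vehicle group.

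Related lists differed in direction under the combination. Mitochondrial aminoacyl-tRNA synthetases rose for 6 of 16, among them Pars2 (0.49) and Cars2 (0.35). Genes of mitochondrial DNA transcription and upkeep rose for 4 and fell for 1 of 13, and the coactivator genes Ppargc1b (1.06) and Ppargc1a (0.51) rose. Mitochondrially encoded transcripts rose for 11 of 15 with a median of 0.51, while cytosolic ribosomal protein genes fell for 20 of 82. Myeloid markers fell for 5 of 5 and fibroblast markers for 3. Their part in the members' values was not tested.

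Against empagliflozin alone, the combination raised 20 of 70 kidney members and lowered none, or 28.6% against 17.0% of all genes called higher and 14.8% lower. The median was 0.11, and 58 of 70 estimates were above 0. Within plates 19 were called on plate 1 and 3 on plate 2, and without the 4 combination libraries set apart, 9 of the 20 remained. Mrps9 was again first, with 70.5, 85.4 and 96.9 CPM on the combination and 50.0, 65.2 and 78.4 on empagliflozin, a log2 fold change of 0.39 (SE 0.05, edgeR adjusted p = 2.1e-05). Mrpl28 had 39.9, 49.6 and 67.8 CPM on empagliflozin, a log2 fold change of 0.36 (SE 0.05, edgeR adjusted p = 1.5e-05). Mrpl16 had 56.1, 72.9 and 80.9 CPM against 48.4, 54.0 and 66.3, a log2 fold change of 0.35 (SE 0.06, edgeR adjusted p = 0.00027). For these 3 members all 10 combination libraries were above the empagliflozin median, and the groups overlap. Mrpl15 (0.30), Mrps26 (0.30), Mrpl12 (0.28) and Mrpl38 (0.28) followed, and the smallest called change was that of Mrpl22 (0.15). Mrpl46 and Mrps11, the pair that share an upstream interval, were 0.27 and 0.19 higher here, but -0.04 and -0.31 on empagliflozin against vehicle. Complex I genes rose for 20 of 35, mitochondrially encoded transcripts for 10 of 15 and aminoacyl-tRNA synthetases for 7 of 16, while 5 of 5 myeloid markers fell.

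Studies A and B share no libraries, so their calls can be set side by side. Of the 14 members lower in obese than lean kidneys, 6 (Mrpl15, Mrpl16, Mrpl22, Mrpl30, Mrps7 and Mrps9) were among the 20 raised by the combination against empagliflozin, which is 42.9% of the first list and 30% of the second. Over all genes the corresponding shares were 44.6% and 40.6%. The members' shares thus lie near or under those of genes at large.

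**Figure D3:**
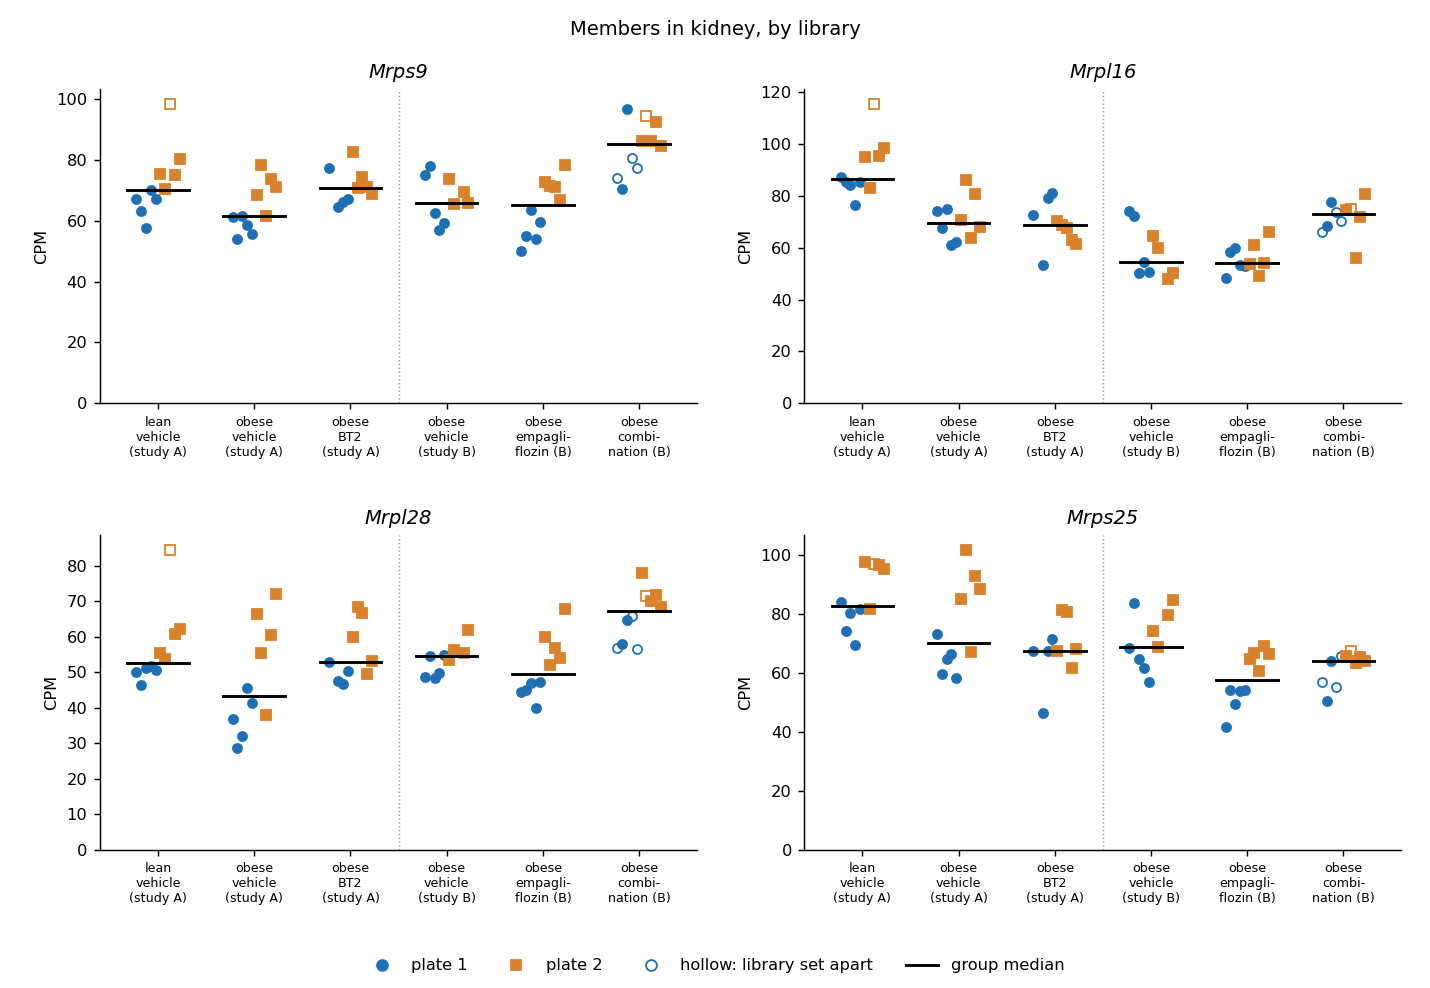
CPM of Mrps9, Mrpl16, Mrpl28 and Mrps25 in each kidney library (vertical axes) for the 6 groups; circles are plate 1, squares plate 2, hollow symbols libraries set apart, and lines group medians. Mrps9, Mrpl16 and Mrpl28 are highest within study B on the combination (medians 85.4, 72.9 and 67.1), Mrps25 is lower on empagliflozin and the combination than on vehicle (57.5 and 63.9 against 68.8), and groups overlap in each panel.

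In the heart, obesity had the opposite sign. Estimates were above 0 for 61 of 70 members, with a median of 0.11, and 2 were called higher, or 2.86%, against 3.32% of all genes called higher and 2.03% lower. No member was called on either plate alone, and the shared direction came mainly from plate 2. There the median was 0.15 with 64 of 70 estimates above 0, against 0.03 with 41 of 70 above 0 on plate 1. Without the libraries set apart 1 member was called. Mrpl32 had 15.0, 17.0 and 23.3 CPM in obese and 11.4, 14.4 and 16.2 in lean hearts, with all 10 obese libraries above the lean median. Its log2 fold change was 0.31 (SE 0.08, edgeR adjusted p = 0.033), and 0.24 (edgeR adjusted p = 0.039) without obese vehicle replicate 10, the library at 23.3. Mrpl13, a bacterial-type large-subunit protein, had 65.0, 77.0 and 106 CPM against 57.9, 65.9 and 80.0, a log2 fold change of 0.27 (SE 0.08, edgeR adjusted p = 0.045). It lost its call without the same replicate (edgeR adjusted p = 0.075). The groups overlap for both members. Of 3 atrial markers Nppa (1.29) was called higher, with Myl7 (1.27) and Sln (1.18) not called, and the summed atrial level was 350.3, 470.2 and 1156 CPM in lean and 484, 1023 and 2695 in obese hearts. Of 5 cardiomyocyte markers Myh6 (-0.74) fell, and of 4 endothelial markers Cdh5 (-0.44) fell. The part of these markers in the members' values was not tested.

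The obesity effect differed between the organs for 17 members in a test of the difference itself. All 17 had the higher value in heart, or 24.3%, against 6.41% of all genes higher and 7.64% lower, and 67 of 70 differences were above 0 with a median of 0.28. Largest was Mrps18c, with a log2 difference of 0.52 (SE 0.14, edgeR adjusted p = 0.011), followed by Mrpl40 (0.47), Mrpl22 (0.47) and Mrpl30 (0.46). Mrpl16 differed by 0.40 (SE 0.09, edgeR adjusted p = 0.0019). On plate 1 alone 9 members passed and on plate 2 alone 0, and 8 passed without lean kidney replicate 8.

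BT2 alone and empagliflozin alone changed no member in the heart by edgeR's test, against 0.0239% of all genes higher and 0.0319% lower for BT2 and 0.0822% and 0.0247% for empagliflozin. At an unadjusted p under 0.05 there were 1 and 9 members, and DESeq2 called 1 and 0. For BT2 the smallest adjusted p values were those of Mrpl18 (0.18, edgeR adjusted p = 0.21) and Mrpl47 (0.10, edgeR adjusted p = 0.76). Mrpl18 had 46.6, 51.9 and 53.5 CPM on BT2 against 39.4, 46.2 and 48.3, with all 10 BT2 libraries above the vehicle median. For BT2 no member was called on either plate alone, and the median was 0.02 pooled, 0.07 on plate 1 and -0.04 on plate 2. Without the libraries set apart neither compound gave a called member. For empagliflozin they were those of Mrpl37 (0.16, edgeR adjusted p = 0.39) and Mrps11 (0.21, edgeR adjusted p = 0.44). On plate 1 alone 12 members passed for empagliflozin, and on plate 2 alone 0, with medians of 0.16 and 0.01. The empagliflozin effect differed between heart and kidney for 8 members, all higher in heart, or 11.4% against 1.09% of all genes higher and 0.299% lower. Mrpl14 (0.58), Mrpl54 (0.57), Mrps11 (0.53) and Mrpl12 (0.51) differed most, with edgeR adjusted p values of 0.021, 0.026, 0.014 and 0.021. On plate 1 alone 24 members passed and on plate 2 alone 0, and 5 passed without the libraries set apart. No BT2 effect differed between the organs by edgeR's test, against 0.234% of all genes higher and 0.294% lower, with 2 members at an unadjusted p under 0.05 and DESeq2 calling 0. On each plate alone, and without the libraries set apart, this count was also 0.

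In the heart, the combination raised 13 of 70 members and lowered none, or 18.6% against 3.58% of all genes called higher and 1.55% lower. The estimate was above 0 for 68 of 70 members, with a median of 0.17. The calls did not hold in parts of the data. Plate 1 alone gave 1 called member and plate 2 alone 0, with medians of 0.19 and 0.13. Without the libraries set apart, 4 vehicle and 3 combination hearts, 0 were called and the median was 0.10, with 111 genes called in all.

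Mrpl58, the peptidyl-tRNA hydrolase, rose most. It had 33.8, 42.8 and 53.5 CPM on the combination and 27.3, 34.1 and 38.6 on vehicle, with 9 of 10 treated libraries above the vehicle median and overlapping groups. The log2 fold change was 0.35 (SE 0.06, edgeR adjusted p = 0.00080), and its edgeR adjusted p was 0.090 without the libraries set apart. Mrpl30 had 32.4, 38.6 and 45.2 CPM against 23.3, 32.3 and 42.3, a log2 fold change of 0.32 (SE 0.06, edgeR adjusted p = 0.0046), with all 10 above the vehicle median. Mrps11 had 12.3, 19.5 and 31.5 CPM against 11.3, 15.9 and 20.1, a log2 fold change of 0.32 (SE 0.08, edgeR adjusted p = 0.018), with 7 of 10 above. Its neighbour Mrpl46 was estimated at 0.24 and not called (edgeR adjusted p = 0.067). Mrps18a, a large-subunit protein whose promoter holds an ETS match like that of Mrpl58, had 27.3, 30.1 and 37.8 CPM against 22.1, 26.9 and 33.2. Its log2 fold change was 0.22 (SE 0.07, edgeR adjusted p = 0.049). Of other raised members, Mrpl30, Mrpl27, Mrpl48 and Mrps31 have an ETS match, and Mrps11, Mrpl54, Mrpl37, Mrps23, Mrpl45 and Mrps15 have none. The uncalled Mrpl3 has such a match too, and a tie between matches and calls was not tested.

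The other members raised in the heart were Mrpl54 (0.29), Mrps34 (0.28), Mrpl27 (0.27), Mrpl37 (0.25), Mrps23 (0.25), Mrpl48 (0.24), Mrps31 (0.22), Mrpl45 (0.22) and Mrps15 (0.21). Mrpl12 (0.21, edgeR adjusted p = 0.13), Mrpl44 (0.17), Mrps12 (0.14), Mrpl3 (0.09), Mrps36 (0.07), Mrps22 (0.05) and Mrps30 (-0.03) were not called. Complex I genes rose for 12 of 35 with a median of 0.22, and the mitochondrial transcription and upkeep genes Ssbp1 (0.32) and Hsd17b10 (0.23) rose. None of the 15 mitochondrially encoded transcripts was called, with 5 of 82 cytosolic ribosomal protein genes higher. Of 5 cardiomyocyte markers Tnnt2 (0.37) and Tnni3 (0.44) rose, while Myh6 (-0.04), Ryr2 (-0.04) and Actc1 (0.05) were not called. Of the skeletal muscle markers Myh4 (3.70, edgeR adjusted p = 0.029) rose, while Tnnt3 (2.43, edgeR adjusted p = 0.062) and Acta1 (0.26) were not called. Ttr, listed as a hepatocyte marker, rose as well (0.41), with 6.05 to 21.3 CPM over all hearts. The other hepatocyte markers Alb and Apoa1 reached at most 0.652 and 0.643 CPM in any heart. Summed skeletal muscle markers were 347, 596 and 2823 CPM on the combination and 408, 559 and 854 on vehicle, groups that overlap. The part of these markers in the members' values was not tested. Against empagliflozin alone, the combination changed no member in the heart by edgeR's test, against 0.0249% of all genes higher and 0% lower. At an unadjusted p under 0.05 there were 12 members, and DESeq2 called 1. On each plate alone, and without the libraries set apart, edgeR called 0, with medians of 0.04 on plate 1 and 0.11 on plate 2. Mrps21 (0.23, edgeR adjusted p = 0.22) and Mrpl47 (0.22, edgeR adjusted p = 0.38) had the smallest adjusted p values.

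The combination's effect differed between the organs for 20 members, all higher in heart, or 28.6% against 8.30% of all genes higher and 7.91% lower. Mrps21 differed most, by 0.55 on the log2 scale (SE 0.11, edgeR adjusted p = 0.00036), with Mrpl58 at 0.53 (SE 0.10, edgeR adjusted p = 0.00019), Mrps28 at 0.47 and Mrpl14 at 0.45. Mrpl32, the member with 3 NRF1 matches, differed by 0.44 (SE 0.09, edgeR adjusted p = 0.00050). It fell in kidney on the combination (-0.24). Within plates 7 members passed on plate 1 and 2 on plate 2, and 5 without the libraries set apart.

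**Figure D4:**
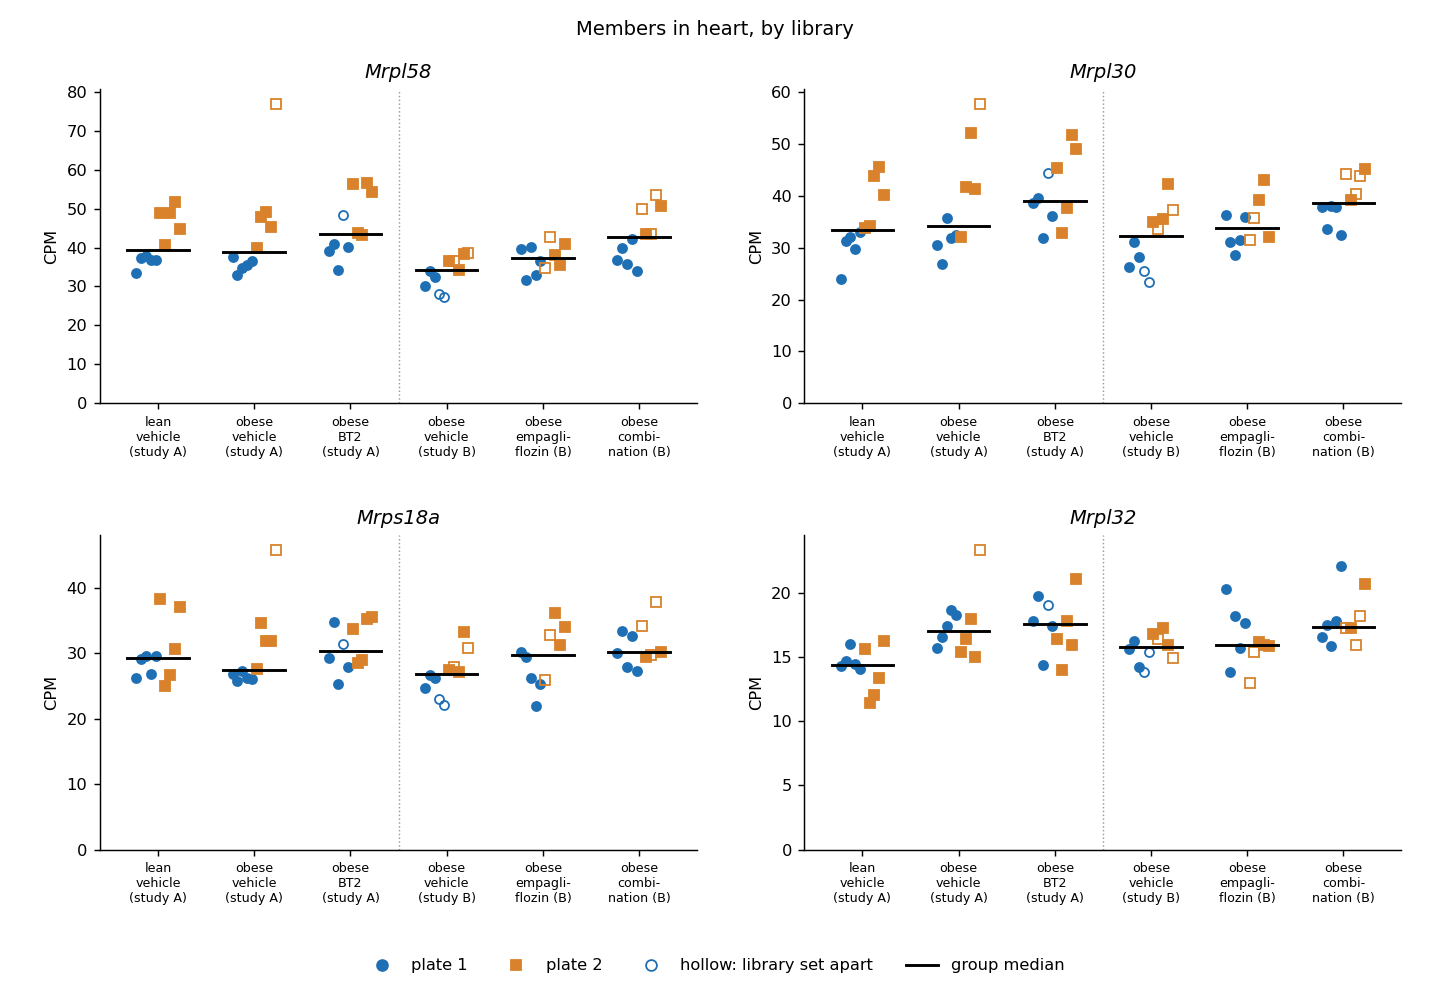
CPM of Mrpl58, Mrpl30, Mrps18a and Mrpl32 in each heart library (vertical axes) for the 6 groups; circles are plate 1, squares plate 2, hollow symbols libraries set apart, and lines group medians. In study B the combination has a higher median than vehicle for Mrpl58 (42.8 against 34.1), Mrpl30 (38.6 against 32.3) and Mrps18a (30.1 against 26.9), with overlapping groups, and Mrpl32 is higher in obese than lean hearts of study A.

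**Figure D5:**
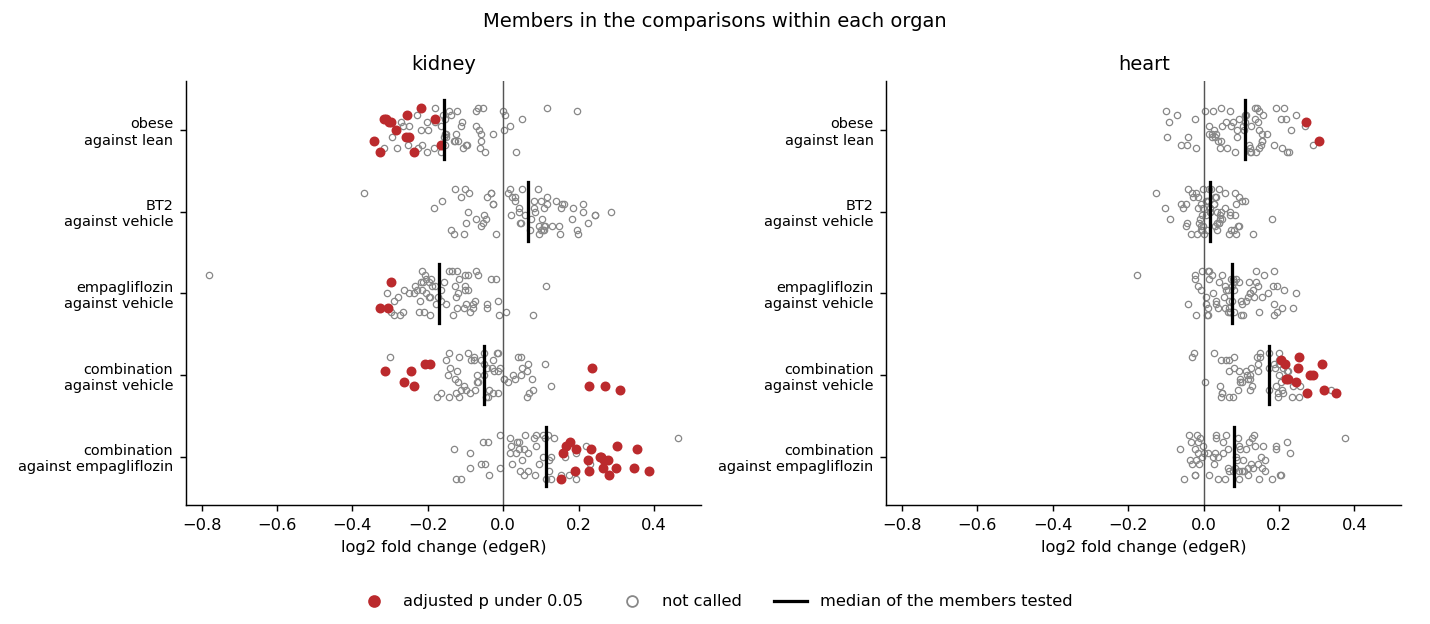
Log2 fold change (horizontal axis, edgeR) of each of the 70 members tested in the 5 comparisons within kidney and the 5 within heart; filled points passed an adjusted p of 0.05, open points did not, and bars are the members' medians. The open point at the far left of the kidney panel is Mrps17 (-0.78), and kidney medians are -0.16 for obesity and -0.17 for empagliflozin, heart medians 0.11 and 0.08, and the combination against vehicle has both higher and lower calls in kidney but only higher calls in heart.

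The 3 large-subunit genes in lower-case spelling were fitted with all genes but are in none of the counts of members. In lean rats mrpl9 (0.71), mrpl11 (0.72) and mrpl24 (1.09) were higher in heart. In kidney mrpl11 was lower in obese than lean rats (-0.25, edgeR adjusted p = 0.014), mrpl24 was lower on the combination than on vehicle (-0.18, edgeR adjusted p = 0.043), and mrpl9 was higher on the combination than on empagliflozin (0.17, edgeR adjusted p = 0.048). In heart mrpl11 was higher on the combination than on vehicle (0.23, edgeR adjusted p = 0.039). The organ difference was called for mrpl11 under obesity (0.40) and for mrpl11 (0.24) and mrpl24 (0.33) under the combination.

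Most members varied little between libraries of a group, some varied more, and Mrps17 stood far apart. The median coefficient of variation within groups was 13.4% over the 70 members and under 15% for 44 of them. For Mrps17, a small-subunit protein of bacterial type, it was 92.3%, where the next, Mrpl54 and Mrpl14, had 34.2% and 29.4%. Mrps17 ranged from 0 to 40.9 CPM with a median of 7.82 over 58 kidney libraries, and from 0 to 25.5 with a median of 9.70 over 60 hearts. It was listed at 0 in 4 kidneys and 7 hearts. An unnamed gene, ENSRNOG00000066020, picked out after its values were seen, ran the other way, from 2.07 to 39.6 CPM in kidney and 0.878 to 27.2 in heart. Pearson's r between them was -0.92 over the 58 kidney and -0.93 over the 60 heart libraries, which share their scaling. Strongly negative values are not rare for a partner picked as the most negative of all genes. With such a partner, r lay below -0.8 for 23 members in kidney and 32 in heart, Mrps17 among them. The values of Mrps17 were the most negative in each organ, followed by -0.91 for Mrps34 in kidney and for Mrpl54 with Dcaf7 in heart. The unnamed gene was the most negative partner of Mrps17 in both organs. The sum of Mrps17 and the unnamed gene ranged only from 23.2 to 43.2 CPM in kidney and from 17.4 to 31.4 in heart. Its coefficients of variation were 13.8% and 13.8%. Whether the counting divided the reads of 1 transcript between them was not tested, and values of Mrps17 alone are uncertain.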

How the data were processed

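The deposited gene counts are estimated counts, 6.85% of them not whole, and Salmon 1.5.2 and STAR 2.7.3a, with the build mRatBN7.2, are listed in the submitters' processing notes. Repeat runs (43 samples) were summed and rounded, and 163 count columns were used while 82 others were not. The authors also deposited DESeq2 tables with log2 fold changes, p-values and normalized counts (a score per sample), from which symbols were taken. By the authors' own tests, the kidney members called higher and lower were 0 and 11 for obesity and 0 and 0 for BT2. They were 0 and 14 for empagliflozin and 4 and 6 for the combination. In heart they were, in the same order, 2 and 0, 1 and 0, 0 and 0, and 22 and 0. Over all genes with an adjusted p, the shares higher and lower in kidney were 18.2% and 16.0% for obesity. They were 5.18% and 6.19% for BT2, 1.73% and 2.39% for empagliflozin, and 14.1% and 13.8% for the combination. In heart they were, in the same order, 3.41% and 2.64%, 0.161% and 0.328%, 0.654% and 0.184%, and 5.29% and 2.76%.

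Counts were tested with edgeR 4.0.16 (R 4.3.3): filterByExpr, TMM, trended dispersion, quasi-likelihood F test, plate as covariate, Benjamini-Hochberg adjustment over all genes. Differences between organs were contrasts in 1 fit. DESeq2 1.42.0 was an alternative. Replicates are separate rats. Libraries were set apart under 1000000 counts, in kidney above 100 times the organ median of Actc1 or Alb, and in heart with Myl7 above 5 times or Myh4 above 100 times its median there. The fit was also run on simulated counts with the same dispersion for every gene and no plate effect. Those counts cannot show how the fit handles plate differences or libraries with markers of another tissue. Named in each comparison were up to 4 called members with the highest and 4 with the lowest change at 5 CPM or more, or else the 2 with the smallest adjusted p, together with 9 members of known role; the other called members are listed with their fold change. The members and lists were chosen with earlier results of these data known. Mrpl33, Mrpl34, Mrpl50, Mrpl53 and Mrps6 were not analysed here, and mrpl9, mrpl11 and mrpl24 were fitted but not counted as members.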

Additional observations from a re-analysis of the deposited data

Results flagged for a closer look

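In 9 of 71 group values looked at, the highest or lowest library stood apart from the other libraries of its group. Chance flags about 1 in 20 separate groups, but these values are not independent, so the count cannot be set against that rate. Most of the 9 are values of the same library, lean kidney replicate 8. Lean kidney replicate 8 had the highest summed level of the members (4579 CPM), and BT2 kidney replicate 3 the lowest of its group (2345 CPM). The same lean kidney, scaled within its organ, stood apart for Mrps36 (107 CPM), Mrps15 (88.7), Mrpl42 (83.6), Mrpl40 (72.9), Mrpl30 (72.4) and Mrpl4 (31.6). On the joint scale of the lean organs these members were higher in heart. That library carried 8526 CPM of cardiomyocyte and 23402.5 CPM of skeletal muscle markers. Obese vehicle heart replicate 10 of study A stood apart for Mrpl32 (23.3 CPM).

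By edgeR's test, effects differed between heart and kidney for 17 of 70 members under obesity, 8 under empagliflozin and 20 under the combination. All of these had the higher value in heart in this test of the difference. Over all genes, the shares higher in heart were 6.41%, 1.09% and 8.30%, and the shares lower 7.64%, 0.299% and 7.91%. Each count of members was lower without the libraries set apart and differed between the plates, as given below. Under obesity the log2 differences were 0.52 for Mrps18c, 0.47 for Mrpl40, 0.47 for Mrpl22 and 0.46 for Mrpl30. Under empagliflozin they were 0.58 for Mrpl14, 0.57 for Mrpl54, 0.53 for Mrps11 and 0.51 for Mrpl12. Under the combination they were 0.55 for Mrps21, 0.53 for Mrpl58, 0.47 for Mrps28 and 0.45 for Mrpl14.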

How the results depend on the processing

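The count of members higher or lower in lean heart than in lean kidney, 66, ranged from 56 to 67 over the alternatives. All of these scaled the organs together. The counts for the following comparisons moved, and the cause was not tested. No called member and no count of calls changed direction, but the uncalled medians under BT2 turned on plate 2, from 0.07 to -0.01 in kidney and from 0.02 to -0.04 in heart. Without the plate term, members called were 5 for kidney obesity (14 with it), 0 for kidney empagliflozin (3), 0 for heart obesity (2), 0 for the heart combination (13), and 9, 0 and 6 for the organ differences under obesity (17), empagliflozin (8) and the combination (20). On plate 1 alone they were 22, 0 and 0 for the first 3 of these, 2 for the kidney combination (10), 12 for heart empagliflozin (0), 1 for the heart combination, and 9, 24 and 7 for the organ differences. On plate 2 alone they were 0 for both obesity comparisons and kidney empagliflozin, 2 for the kidney combination, 3 for the kidney combination against empagliflozin (20), 0 for the heart combination, and 0, 0 and 2 for the organ differences. Without the libraries set apart, 9 were called for kidney obesity, 9 for the kidney combination against empagliflozin, 1 for heart obesity, 0 for the heart combination, and 8, 5 and 5 for the organ differences. Leaving out lean kidney replicate 8 alone, chosen after seeing the data, gave 9 for kidney obesity and 8 for its organ difference, and leaving out obese vehicle heart replicate 10 gave 1 for heart obesity. DESeq2 called 12 for kidney empagliflozin, 21 for the heart combination, 24 for the empagliflozin organ difference, and 1 each for heart BT2 (0) and the heart combination against empagliflozin (0). DESeq2's size factors gave 1 for heart obesity. Without the low-count filter, kidney empagliflozin and heart obesity gave 0 and the empagliflozin organ difference 5.

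The replicate block used the replicate number as a pairing, although nothing in the labels ties same-numbered libraries. The median correlation between their deviations ran from -0.18 to 0.14 over the comparisons within an organ. In the kidney combination against empagliflozin these correlations ran from -0.21 to 0.38. There, 4 of 10 libraries were closest to the library of their own number among those of their plate. With the block, 4 members were called for kidney obesity, 0 for kidney empagliflozin, 8 for the kidney combination, 20 for the kidney combination against empagliflozin, 2 for heart obesity, 3 for the heart combination, 65 between lean organs, and 12, 0 and 12 for the organ differences under obesity, empagliflozin and the combination. The 2 kidney libraries under 1000000 counts stayed in the fits, and at the depth of the others the smallest change called within an organ was 0.15 on the log2 scale.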
